A study of Homo sapiens with 6 samples.

Results

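The genes examined here are 10 members of the SR protein family of splicing factors, SRSF1, SRSF2, SRSF3, SRSF5, SRSF6, SRSF7, SRSF10, SRSF11, TRA2A and TRA2B. Their peaks were taken from the lists of the series by position: a peak belonged to a gene if its midpoint lay within the annotated gene on the same strand. This gave 22 of the 3660 peaks of the SF3B4 list, in 9 of the 10 genes, where 8.92% of all protein-coding genes had a peak, and 0 of the 270 peaks of the G4PID list. The genes were chosen knowing which had peaks, so 9 of 10 beside 8.92% is a description only.

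The series maps protein contacts on RNA by eCLIP in HEK293T, a line of human embryonic kidney cells that carries the SV40 large T antigen. There were 2 libraries from an anti-HA pull-down of G4PID, an artificial biotin ligase that is aimed at RNA G-quadruplexes, 2 from an antibody against SF3B4, and 2 input libraries with no antibody. The protocol, worded alike for every sample, has cells transfected by lipofection with a plasmid for G4PID and EGFP or for the untargeted ligase miniTurboID and EGFP, cultured for 24 h and then given 500 µM biotin for 30 min. It does not say which of these cells gave the SF3B4 and input libraries, and a library of the untargeted ligase was not analysed here. Each antibody has 1 peak list and no value per library. No spread between replicates could therefore be measured, read depth is unknown, and no difference below was tested. Of 8 genes typical of other tissues, such as ALB and INS, 0 had an SF3B4 peak, but with 8.92% of all protein-coding genes having one, this is no check of the cell label. All coordinates are on hg38 with GENCODE release 29.

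SR proteins carry an RNA recognition motif and a tail rich in arginine and serine, bind enhancer sequences in exons and help the spliceosome to define the exon. SF3B4 belongs to the SF3b part of the U2 snRNP, which settles on the intron just upstream of the 3' splice site, the boundary where an intron ends and an exon begins. SR protein genes are known for controlling their own level: an extra exon, often called a poison exon, or an extra splice in the 3'UTR creates a transcript with a premature stop codon or a late exon junction, which is then removed by nonsense-mediated decay. GENCODE marks such transcripts, called decay transcripts below. The principal form is the coding transcript that the APPRIS tag ranks first for a gene. Where several tie, as in SRSF2, SRSF3 and SRSF5, it means all of them, and a site outside it is used by none of them.

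The SF3B4 peaks of these genes often sat at splice sites that the principal form skips. The 7 genes SRSF1, SRSF2, SRSF6, SRSF7, SRSF10, SRSF11 and TRA2A each had a peak within 60 nt upstream of such a site, and in each of the 7 at least 1 of those sites is used by a decay transcript. That is 7 of the 9 genes with a peak, against 10.8% of the 1781 protein-coding genes with a peak. Counting against the principal form was added after seeing the data, and the difference was not tested. The sites in SRSF1 and TRA2A are each also used by 2 transcripts typed as coding. In SRSF1, SRSF2, SRSF6, SRSF10 and TRA2A it was the only peak of the gene. Sequence around these sites is shown for those where an annotated transcript covers the intron. The first set gives the bases that end at the last base of the intron, 5′ to 3′ on the transcribed strand, with the bases inside the deposited peak in capitals. It was rebuilt from GENCODE transcripts, is limited to 30 bases where the stretch is also part of a UTR, and shows where the peak lies in relation to the closing AG.
SRSF1, chr17:58005042-58005071, minus strand: TTATCTTGCTTTTCATGTGTCTTTCTGTAG
SRSF2, chr17:76734563-76734592, minus strand: TCTCTTCTCTTatgtatttttgtgcactag
SRSF7, chr2:38749347-38749406, minus strand: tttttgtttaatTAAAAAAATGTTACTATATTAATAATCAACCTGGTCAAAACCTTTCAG
SRSF11, chr1:70231035-70231094, plus strand: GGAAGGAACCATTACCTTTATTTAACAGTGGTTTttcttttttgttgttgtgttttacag
SRSF11, chr1:70231829-70231858, plus strand: TGTATCTTGATTTTTCTGTGTGCTTTATAG

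In SRSF7 the same peak also covered the premature stop, and in SRSF11 a separate peak inside the exon did. The next set shows the coding stretch of decay exons from SRSF6, SRSF7 and SRSF11 up to the stop codon, which is in capitals. For SRSF6 and SRSF11 only the last 30 bases, stop included, are printed. Reading in frame from the annotated start, 0 earlier stops were found in each.
SRSF6 exon 3 of SRSF6-202, chr20:43459275-43459304, plus strand: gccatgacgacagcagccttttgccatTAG
SRSF7 exon 4 of SRSF7-204, chr2:38749319-38749346, minus strand: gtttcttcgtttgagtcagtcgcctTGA
SRSF11 exon 4 of SRSF11-212, chr1:70231879-70231908, plus strand: gttgttcataaaacagcttttgaaagtTGA

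SRSF1 and SRSF2, classical members that act in constitutive and alternative splicing, each had a single peak inside the 3'UTR. For SRSF1 (ENSG00000136450.12) it spanned 58005015 to 58005117 on chromosome 17, with a log2 fold over input of 3.10 and a −log10 p of 70.9, both the authors' own values for the peak, as are all folds and p-values below. Its midpoint lay 25 nt upstream of a 3' splice site within the last exon of the principal form SRSF1-201, so the peak crosses a boundary that exists only when this part of the 3'UTR is spliced. Of the 3 transcripts that use the site, 2 are typed as coding and SRSF1-207 is a decay transcript in which it opens an exon of 119 nt. For SRSF2 (ENSG00000161547.16) the peak spanned 76734582 to 76734619 on the same chromosome, with a log2 fold of 3.22 and a −log10 p of 15.3. It stood 38 nt upstream of a site used by 4 transcripts, of which 0 are coding and SRSF2-204 and SRSF2-208 are decay transcripts; both splice out 498 nt that the principal form keeps. The second decay site of SRSF2, which opens a cassette exon of 104 nt, had no peak. Both folds were low for the list: 5.05% of all SF3B4 peaks had a fold at or below that of the SRSF1 peak, and the SRSF2 peak was likewise under the list median of 3.93. The −log10 p of the SRSF1 peak was the highest among the genes after that of the first SRSF11 peak, at 80.6.

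**Figure D1:**
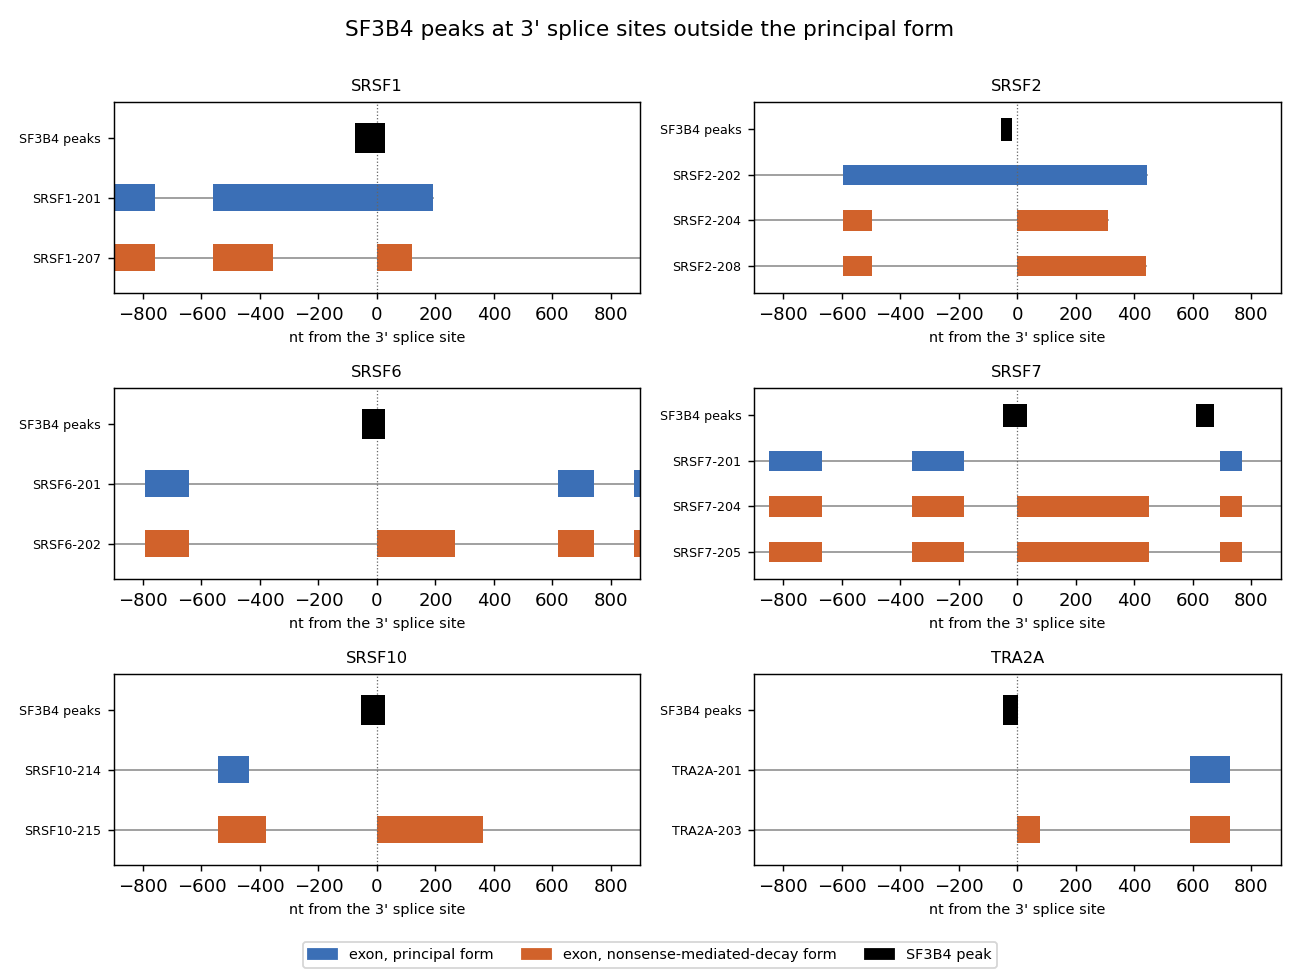
Transcript models and SF3B4 peaks around the 3' splice site outside the principal form in SRSF1, SRSF2, SRSF6, SRSF7, SRSF10 and TRA2A. The x axis is the distance in nt from the first base of the exon, in the direction of transcription; blue boxes are exons of the principal form, orange boxes exons of decay transcripts and black boxes peaks. In each panel a peak touches or closely precedes an exon start that the decay form has and the principal form lacks, 12 nt from the midpoint in SRSF6 and 38 nt in SRSF2.

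SRSF6, a classical member with a pair of RNA recognition motifs, had its only peak at the cassette exon of its decay transcript. The peak (43459101 to 43459181 on chromosome 20, ENSG00000124193.14) had a log2 fold of 4.36 and a −log10 p of 15.2, and its midpoint lay 12 nt upstream of exon 3 of SRSF6-202. That exon is 268 nt long, and its reading frame ends at the TAG shown above, 149 nt into the exon. The next site of the principal form was 630 nt further downstream, and the gene's 5 principal sites had 0 peaks between them.

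SRSF7, a zinc-knuckle member that also serves as an export adaptor, had 3 peaks. The first (38749312 to 38749394 on chromosome 2, ENSG00000115875.18, log2 fold 3.61, −log10 p 15.2) straddled the start of the decay exon of 449 nt in SRSF7-204 and SRSF7-205. Its midpoint was 7 nt upstream of the site and it covered the TGA that ends the reading frame. The second (38748676 to 38748734, log2 fold 4.54) preceded the coding exon that follows the decay exon by 52 nt and lay in an intron that decay and retained-intron transcripts keep. The third (38746772 to 38746804, log2 fold 4.97) was 41 nt upstream of another coding exon and lay within a retained intron. The 3 peaks thus comprised 1 at a decay exon, with the lowest fold of the gene, and 2 at sites of the principal form. The other 2 decay sites of SRSF7 had no peak.

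SRSF3, the smallest classical member and likewise an export adaptor, had 1 peak, and it was at the principal form. It spanned 36601896 to 36601926 on chromosome 6 (ENSG00000112081.16), with a log2 fold of 4.58 and a −log10 p of 6.19, and stood 51 nt upstream of the last exon. In all, 40 peaks of the list carry exactly these values, so they do not rank it among them. Neither of the 2 decay sites of SRSF3, at 36598429 and 36599821, had a peak. For comparison with the decay sites above, the intron ends at 2 principal sites are printed in the same way, peak bases in capitals.
SRSF3, chr6:36601902-36601961, plus strand: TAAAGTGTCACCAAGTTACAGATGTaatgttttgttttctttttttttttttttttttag
SRSF7, chr2:38746748-38746807, minus strand: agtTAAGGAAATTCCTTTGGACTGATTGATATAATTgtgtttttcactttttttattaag
In both, the peak ended upstream of the closing AG, as it did in the SRSF2 and first SRSF11 stretches shown earlier. Peaks that ran through the AG were found at sites of both kinds. By nearest site, those outside the principal form were the peaks of the SRSF1, SRSF7 and second SRSF11 stretches. The peaks of SRSF6, SRSF10 and TRA2A and that of SRSF11 at 70249931, with no stretch printed, were also outside it. Within the principal form they were those of SRSF5 at 69769182 and 69770467 and of SRSF11 at 70232268.

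SRSF5, whose transcripts include 8 with a retained intron, had 3 peaks, all at the principal form (ENSG00000100650.15, chromosome 14). The peak at 69769121 to 69769211 had the highest log2 fold of the genes, 6.51, and 99.6% of the list lay at or below it. Its midpoint was 16 nt upstream of the principal site, and the peak began next to a further site that 1 coding transcript uses, 43 nt upstream of the midpoint. The peak at 69770405 to 69770539 (log2 fold 3.98, −log10 p 68.9) was centred 5 nt inside the next exon, over coding sequence, and was the widest of the genes at 135 nt. The third, at 69770948 to 69770975 (log2 fold 3.31), was 34 nt upstream of its exon in a retained intron. The folds of SRSF5 therefore covered nearly the whole range seen over the genes, from 3.01 in SRSF10 to 6.51.

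SRSF10, a member that represses splicing when dephosphorylated, had the weakest peak. It spanned 23978248 to 23978327 on chromosome 1 (ENSG00000188529.14), with a log2 fold of 3.01 and a −log10 p of 6.03, and 0.984% of the list had a fold at or below it. Its midpoint was 14 nt upstream of a site used by 4 transcripts, of which 0 are coding. The decay transcript SRSF10-215 forms an exon of 363 nt there, although its reading frame is not annotated to end in it. The next principal site was 3210 nt downstream.

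TRA2A and TRA2B, relatives of SR proteins that bind GAA-rich exon sequences, differed in that only TRA2A had a peak. It covered 23522432 to 23522479 on chromosome 7 (ENSG00000164548.10), with a log2 fold of 4.17 and a −log10 p of 8.53, and its midpoint was 23 nt upstream of an exon skipped by the principal form. Of the 5 transcripts that use this site, 2 are typed as coding, and TRA2A-203 is a decay transcript with an exon of 79 nt there. TRA2B (ENSG00000136527.17) has a corresponding site, used by the decay transcript TRA2B-206 among 5 transcripts, but 0 peaks at any of its 12 sites. The lists hold peaks that passed the authors' thresholds, so TRA2B is not shown to be unbound, and the difference between both genes was not tested.

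SRSF11, an atypical member that interacts with the U2AF factor of the 3' splice site, held 10 of the 22 peaks (ENSG00000116754.13, chromosome 1). Only 9 of the 1780 protein-coding gene symbols with a peak had 10 or more, and the median was 1. Of these 10 peaks, 5 were centred 10 to 60 nt before a 3' splice site. The highest, at 70228350 to 70228394 (log2 fold 5.95), was 50 nt upstream of a coding exon. The following intron of the principal form held 5 peaks before the next exon. The first of these 5, at 70229143 to 70229181 (log2 fold 4.02) and the next, at 70229324 to 70229363 (log2 fold 4.18), were 607 and 788 nt past the nearest 5' splice site and under no annotated exon. The third, at 70231032 to 70231068 (log2 fold 3.50), stood 45 nt upstream of an exon of 109 nt used by the decay transcript SRSF11-211. The fourth, at 70231775 to 70231889 (log2 fold 3.64), was 27 nt upstream of the exon of 117 nt that SRSF11-211 and SRSF11-212 share. The fifth, at 70231899 to 70231919 (log2 fold 5.00), lay within that exon and over the TGA that ends the frame of SRSF11-212. Both of these last peaks also had their midpoint under the first exon of a coding transcript, SRSF11-201, and outside coding sequence. That intron therefore had a peak at each of the 2 exons of decay transcripts annotated in it. The reading frame of SRSF11-211 is annotated to end earlier, in its exon 2, and not in the exon of 109 nt. These decay models rest on the lowest support level that GENCODE gives, 5, while SRSF11-201 has level 1. The site of the exon of 109 nt is also used by SRSF11-210, with level 2. Decay transcripts at the sites described for the other genes vary in level. It is 5 for SRSF10-215, 4 for TRA2A-203, 3 for SRSF1-207 and 2 for SRSF6-202. For SRSF2-204 and SRSF2-208 it is 5 and 3, and for SRSF7-204 and SRSF7-205 it is 2 and 5.

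The other peaks of SRSF11 were at or near coding exons. One at 70232217 to 70232329 (log2 fold 4.63, −log10 p 53.3) was centred 5 nt inside the next coding exon. One at 70234649 to 70234670 (log2 fold 5.05) stood 37 nt upstream of the exon after it. The peak at 70249906 to 70249933, with the same fold and p, was 12 nt upstream of a site used by 1 coding transcript, SRSF11-204, and 33 nt upstream of the principal site. The first peak of the gene, at 70221509 to 70221590 (log2 fold 3.82, −log10 p 80.6), lay 63 nt upstream of its nearest site, over an alternative first exon of SRSF11-204.

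**Figure D2:**
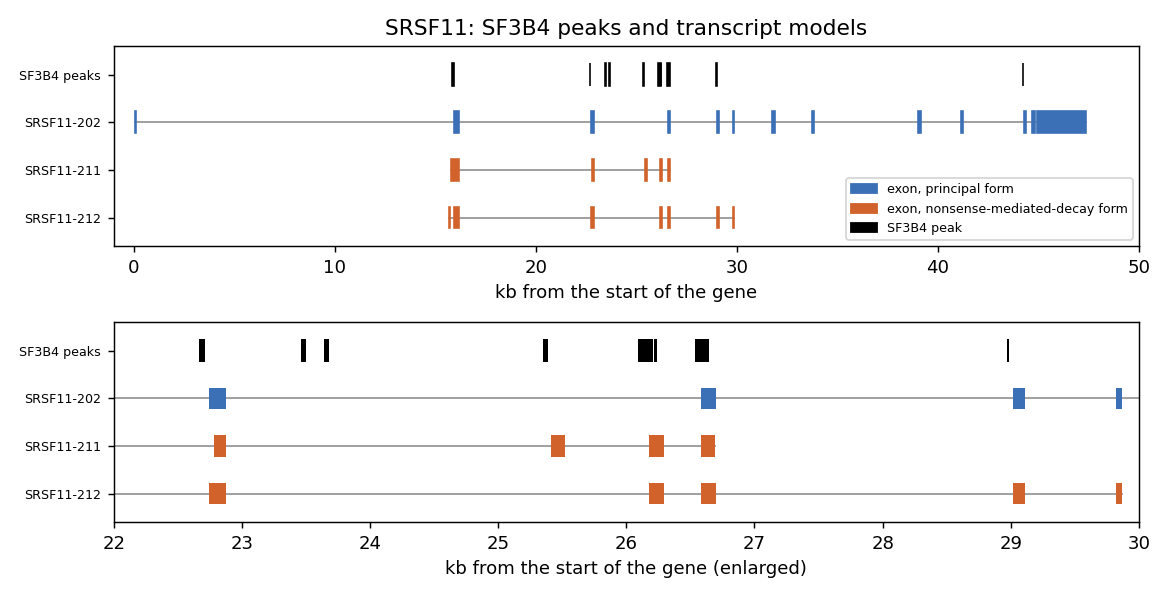
SF3B4 peaks (black) and exons of the principal form (blue) and of the 2 decay transcripts (orange) of SRSF11, in kb from the start of the gene, whole above and enlarged below; boxes above have an outline so that short ones can be seen. Of the 10 peaks, 5 fall in the long intron between 2 neighbouring exons of the principal form, and 3 of these 5 touch or precede the orange exons.

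Counted together, 15 of the 22 peaks (68.2%, exact Clopper-Pearson 95% interval 45.1 to 86.1%) were centred between 10 and 60 nt before the closest 3' splice site. Over all protein-coding genes the share was 71.5%, so in this respect the genes were near the background. The kind of site gave other numbers. Of these 15 peaks, 5 (33.3%, interval 11.8 to 61.6%) were at a site used by 0 coding transcripts, in SRSF2, SRSF6, SRSF10 and SRSF11, against 4.82% over all protein-coding genes. All 5 were decay sites, as were 87 of the 120 such peaks over all protein-coding genes. Measured against the principal form, 8 of 15 (53.3%, interval 26.6 to 78.7%) lay at a site outside it, against 7.40% over all protein-coding genes. Among these 8 is the SRSF11 peak at 70249906, which also lay 33 nt upstream of a principal site. Peaks of 1 gene share their source, the intervals cover counting error only, and the difference was not tested. With log2 folds of at least 4 only, the share at sites of no coding transcript was 1 of 9 (11.1%), since the peaks at such sites were among the weaker ones. Over all 22 peaks, the 13 nearest to a coding site had a median log2 fold of 4.58 (3.10 to 6.51) and the 9 nearest to another site 3.64 (3.01 to 5.00).

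**Figure D3:**
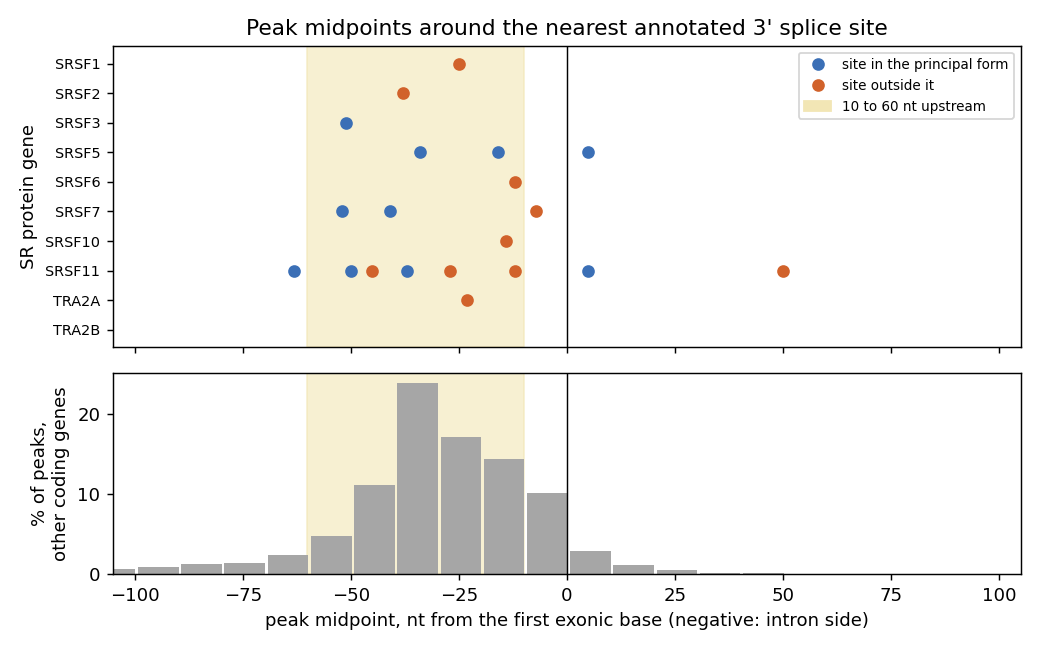
Above, peak midpoints of each SR protein gene within 100 nt of the closest 3' splice site, in nt from the first exonic base with the intron side negative; blue marks sites of the principal form and orange marks others. Below, the share of SF3B4 peaks of all other protein-coding genes in bins of 10 nt. Blue and orange points fall in the same stretch as the bulk of the other peaks, with 15 of 22 in the shaded 10 to 60 nt.

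The same was counted by site rather than by peak. In the 9 genes with a peak, 5 of 21 sites used by no coding transcript (23.8%, interval 8.22 to 47.2%) had a midpoint 10 to 60 nt upstream, and 11 of 68 coding sites (16.2%, interval 8.36 to 27.1%). In all protein-coding genes with a peak these shares were 4.19% and 8.23%, with the coding sites the more often occupied. The order in the SR protein genes depended on the fold: with log2 folds of at least 4, and over all 10 genes, 9 of 78 coding sites (11.5%) and 1 of 23 other sites (4.35%) had a peak. With −log10 p of at least 10, it was 4 of 78 coding sites (5.13%) and 4 of 23 other sites (17.4%). A peak can count for neighbouring sites, and neither order was tested. Over all 10 genes there were 21 sites that a decay transcript uses and the principal form does not, and 8 of them, in 7 genes, had a peak over the site or 10 to 60 nt upstream. In the 9 genes with a peak this was 8 of 20 (40%, interval 19.1 to 63.9%), and 6 of 16 (37.5%) without SRSF11. Over all protein-coding genes with a peak it was 160 of 2110, or 7.58%. The genes are densely annotated in this regard: 22.8% of their 101 sites are used by no coding transcript, against 11.7% in the other protein-coding genes with a peak, and 10 of 10 have a decay transcript, against 59.1%. The part of annotation in the counts was not tested. The upstream introns of sites with and without a peak overlapped in length. Outside the principal form the shortest intron ending at a site measured 570.5 nt at the median with a peak (n = 8, 356 to 8748 nt). Without a peak it measured 518 nt (n = 31, 91 to 6625 nt). At sites of the principal form the medians were 384 nt with a peak (n = 8) and 515.5 nt without (n = 54).

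Over all 22 peaks, retained introns held a share near that of other genes. In all, 7 of the 22 midpoints (31.8%) lay in an exon of a retained-intron transcript, against 37.4% over all protein-coding genes. SRSF11, with 10 of the 22 peaks, has 0 retained-intron transcripts, and without it the share was 7 of 12 (58.3%). In SRSF3, SRSF5 and SRSF7, 3 peaks lay in a retained intron and under no exon of a coding or decay transcript (13.6%, interval 2.91 to 34.9%), against 31.0% over all protein-coding genes, a share within that interval. A further 7 of the 22 lay under no annotated exon of any type, in SRSF6, SRSF10, SRSF11 and TRA2A. Coding sequence held 2 midpoints, in SRSF5 and SRSF11. For these last 2 counts no share over all protein-coding genes is at hand, so they are descriptions only.

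The folds of the 22 peaks had a median of 4.18 and ranged from 3.01 to 6.51, against a median of 3.93 over the whole SF3B4 list. A −log10 p of 15.7 was given to 5 of them, in SRSF5, SRSF7 and SRSF11, and to 300 peaks of the list, while their folds ran from 4.18 to 6.51, so p does not order these peaks. Peaks were 46.5 nt wide at the median, from 21 to 135 nt.

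**Figure D4:**
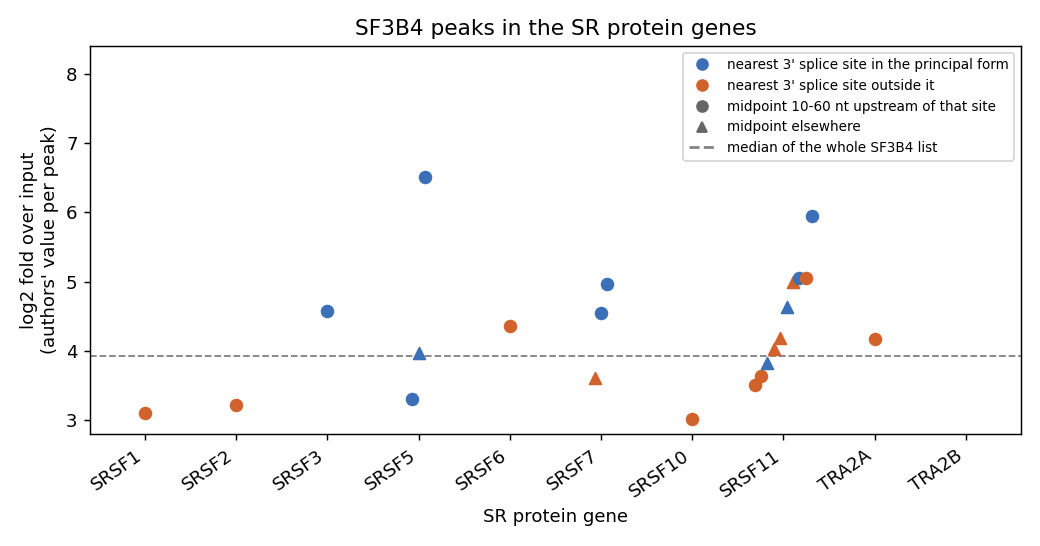
The authors' log2 fold over input for each of the 22 SF3B4 peaks, by gene. Blue marks a nearest 3' splice site in the principal form and orange one outside it; circles are midpoints 10 to 60 nt upstream of that site and triangles the rest. The single peaks of SRSF1, SRSF2 and SRSF10 lie between 3.01 and 3.22, below the dashed list median of 3.93, and TRA2B has no point.

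In sequence the sites resembled others. The window of 60 nt upstream could be read for 14 distinct sites, and all 14 introns ended in AG, as did 97.5% of 37628 readable windows of protein-coding genes. Pyrimidines made up 69.4% of positions 20 to 3 nt upstream at the median, against 72.2%. The motif CTNAC, which resembles the branch point consensus, was searched together with its close forms CTNAT, the variant TTNAC and the variant TTNAT. Matches may overlap each other, and only the transcribed strand was read, 45 to 15 nt upstream. At least 1 match was found at 10 of the 14 sites (71.4%), against 49.6% of all readable windows. In SRSF2 a match placed the A of the motif 31 nt upstream, inside the peak, and another placed it 19 nt upstream, outside the peak. In the first SRSF11 stretch shown above, matches placed it 41 and 36 nt upstream, both inside the peak. A match is a description of letters, and no such letters at the SRSF3 site above says nothing about its branch point.

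Among genes that work with SR proteins, SF3B4 peaks were also present, and sites outside the principal form varied. Of the 4 SR genes outside the list, SRSF9 (1 peak, log2 fold 3.72) and SRSF4 (2 peaks, highest 3.36) had one, and 1 SRSF4 peak was at a site of no coding transcript. SR-related proteins had a peak in 13 of 18 genes, led by RBM39 (6.07), NKTR (5.27), LUC7L and THRAP3 (both 5.09). Of their 21 peaks upstream of a 3' splice site, 3 were at sites of no coding transcript (14.3%) and 7 outside the principal form (33.3%). The kinases that phosphorylate SR proteins and their importer had one in 5 of 10, led by PRPF4B (5.13), CLK1 (4.79), CLK4 (4.13) and CLK2 (3.56), with 2 of 8 at sites of no coding transcript, both in PRPF4B, and 3 of 8 (37.5%) outside the principal form. Partners at the 3' splice site had one in 4 of 6, SF1 (5.03), U2AF1L4 (3.69), PUF60 (3.64) and U2AF2 (3.58), with 0 of 6 at such sites. The hnRNP genes, led by HNRNPH1 (7.13), HNRNPU (6.68), HNRNPA1 (5.97) and HNRNPA3 (5.88), had one in 17 of 24, with 3 of 57 (5.26%) at sites of no coding transcript and 4 of 57 (7.02%) outside the principal form. These shares rest on small counts and were not tested against each other.

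The other genes with the most peaks at sites of no coding transcript were AC106886.5 (5 of 5 peaks), AL031708.1 (5 of 5), TAF1D (5 of 5), AP002990.1 (4 of 4) and PRPF4B (2 of 2). In SRSF11 it was 2 of 10. Exactly 2 such peaks were found in 10 genes, PRPF4B and SRSF11 among them, and PRPF4B is named for having the highest fold at these sites. In AC106886.5, AL031708.1 and AP002990.1, all of these sites are coding sites of another gene on the same strand, so which gene these peaks belong to cannot be told apart. Over all protein-coding genes this held for 31 of the 120 peaks at such sites and for 0 of the 5 in the SR protein genes. Without these 31 the background share would be 3.58%. Beyond those with 0, 81 gene symbols (4.55% of those with a peak) had 1 such peak.

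The quadruplex-directed ligase had no listed contact with these genes. The G4PID list held 0 peaks in any of the 10, and 0.496% of protein-coding genes had one. A quadruplex motif, defined as 4 stretches of 3 or more G separated by 1 to 7 nt, occurs in an annotated transcript of 5 of the 10 genes (SRSF2, SRSF3, SRSF5, SRSF7 and TRA2B), and of 36.8% of protein-coding genes. An unlisted gene is not shown to lack contact.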

How the data were processed

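RNA contacts were measured by eCLIP in HEK293T cells, from 2 G4PID, 2 SF3B4 and 2 input libraries. The submitters' processing notes name cutadapt (3.4), STAR (2.7.0d) and the builds hg19 and hg38. For the peak caller, its filters and how replicates were joined, details were not given in the sources used here. A single list per antibody was deposited, with no header. From column order and range, the deposited values were taken to be a −log10 p and a log2 fold over input for each peak. The coordinates were taken as hg38 from the deposited lists' own names. Read depth is unknown.

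Peaks were placed by midpoint on all GENCODE release 29 transcripts. Members were taken by gene; other peaks went to 1 gene, protein-coding before other types, exon before intron, then by symbol. A 3' splice site is coding if a protein-coding transcript uses it. A transcript's own type decided decay and retained-intron classes. The principal form is the highest APPRIS rank. Sequence was rebuilt from 151222 transcripts with 0 disagreements, since no genome was used. Exact Clopper-Pearson intervals are 95%. The placement was tested on simulated peaks. All 10 genes and up to 4 of each comparison list by fold are named, with the 5 other genes of most peaks at sites of no coding transcript. Members and lists were chosen with earlier results of these data known; the count against the principal form was added after seeing the data. Python 3.11.15, numpy 2.4.6, scipy 1.17.1 and matplotlib 3.10.9 were used.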

Additional observations from a re-analysis of the deposited data

How the results depend on the processing

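Of 89 values recomputed under 10 alternatives, 81 stayed close to the first value: counts within 1.5 times, and shares and the median fold within its 95% interval. These intervals are wide. The share of peaks upstream of a 3' splice site counted as close at 45.5%, against 68.2% at first. It took that value with the 5' end of the peak, the basic transcript set and a window of 10 to 40 nt. The values that moved follow. With log2 folds of at least 4, 13 of the 22 peaks were left, the share at sites of no coding transcript fell from 33.3% to 11.1%, and 4.35% of the sites used by no coding transcript in the 10 genes had a peak, against 21.7%; coding sites then stood at 11.5%, against 14.1%, so the order of both kinds turned. With −log10 p of at least 10, 5.13% of coding sites had a peak, against 14.1%, and 0% of peaks lay in a retained intron, against 13.6%. With the basic transcript set, 0% of peaks were at sites of no coding transcript and 0% in a retained intron, because that set holds no decay or retained-intron transcripts of these genes; the share of such sites with a peak then has no value. Leaving SRSF11 aside, chosen after seeing the data, left 12 peaks, of which 3 of 10 upstream of a 3' splice site (30.0%) were at sites of no coding transcript. Measuring against the principal form, also chosen after seeing the data, gave 53.3%. The 0 G4PID peaks held under every alternative run. No paired analysis was possible because each antibody has 1 list and no value per library, and leaving out a replicate could not be run for the same reason.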
